A study of Bos taurus with 12 samples.

Results

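The 10 transcripts described here were chosen by their measured values. They held the largest estimated counts in 1 of the 12 bovine RNA sequencing libraries of the study, cumulus L replicate 3, out of 38030 transcripts in each table. The lengths of all 10 match protein-coding genes of the bovine mitochondrial genome. Because the counts of cumulus L replicate 3 made the choice, its values are given as a description, and that library entered none of the main tests.

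The study sequenced single metaphase II (MII) oocytes and the cumulus cells, somatic cells of the follicle that enclose an oocyte, from multiparous lactating dairy cows. The labels name no breed, and the study's text calls them Holstein cows. Cows of the L group lost body condition (BC) between calving and 27 to 33 days in milk, and cows of the M/G group maintained or gained it. All were housed on 1 farm under the same feeding, and 1 cumulus-oocyte complex per cow was retrieved by ovum pickup from the preovulatory follicle. The pickup came later in lactation than that period, after the final GnRH of Double Ovsynch, a hormone program given to all cows. There were 3 libraries per group and cell type, each from a different cow within a cell type. They came from 9 cows, of which 3 are represented in both cell types. Each oocyte library is 1 cell. Oocyte libraries were made with a single-cell kit and cumulus libraries with another kit, so cell type and kit cannot be told apart in any comparison of them. The study describes depletion of ribosomal RNA for oocyte libraries, and for cumulus libraries names no change of procedure other than the kit.

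Groups follow the sample titles. In all 12 records the condition field names the other group than the title, and following it would turn the sign of every L against M/G difference below. The titles were followed because the cow number tied to each library stands, in the study's own list of cows, under the group that its title gives. Library totals of estimated counts lay between 6397423 and 31810285. The tables hold Ensembl transcript identifiers with no gene names, and 0 of these identifiers appear in the gene table at hand, so the labelled cell types could not be checked against oocyte or cumulus markers.

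The mitochondrial genome encodes 13 proteins, all of them subunits of the oxidative phosphorylation complexes. Both strands are transcribed as long precursors that are cut into the individual RNA, and all of the protein genes but ND6 lie in the heavy-strand transcript. Mature oocytes are known for a large store of mitochondria that passes to the embryo, and cumulus cells supply the oocyte with metabolites. A share of mitochondrial RNA in a library is a relative quantity, and more mitochondrial RNA per cell cannot be told apart from less of all other RNA. Nor can fewer cells and less RNA per cell be told apart in the pooled cumulus cells.

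Each name below rests on length. The RefSeq annotation of the ARS-UCD2.0 assembly lists 13 protein-coding mitochondrial genes, and for all 13 a transcript of exactly the same length was found in the tables. Of these 13 transcripts, 10 are the chosen ones. In order of their counts in cumulus L replicate 3 they are ND5 (ENSBTAT00000060577.1, 1821 nt), ND4 (ENSBTAT00000060552.1, 1378 nt), CYTB (ENSBTAT00000060567.1, 1140 nt), COX1 (ENSBTAT00000060569.1, 1545 nt), ND2 (ENSBTAT00000060548.1, 1042 nt), ND1 (ENSBTAT00000060571.1, 956 nt), ND6 (ENSBTAT00000060562.1, 528 nt), ATP6 (ENSBTAT00000060539.1, 681 nt), COX3 (ENSBTAT00000060566.1, 781 nt) and COX2 (ENSBTAT00000060549.1, 684 nt). Length alone is not unique, since 1 to 25 other transcripts share the length of each of the 13 genes. Summed over the 12 libraries, however, the counts of each member exceeded those of the next transcript of its length at least 17.5-fold, the value for CYTB, and up to 4523-fold, the value for ND1.

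The members fall into 4 complexes by role. ND1, ND2, ND4, ND5 and ND6 are subunits of complex I, which oxidizes NADH. CYTB is the mitochondrially encoded subunit of complex III, which passes electrons to cytochrome c. COX1, COX2 and COX3 form the core of complex IV, cytochrome c oxidase, and ATP6 is part of the proton channel of the ATP synthase. The 3 genes of the mitochondrial list that were not chosen are ND4L and ND3 of complex I and ATP8 of the ATP synthase. They ranked 11, 14 and 12 by counts in cumulus L replicate 3. The threshold fell between COX2, with 262949 estimated counts or 2.50% of the library, and ND4L (ENSBTAT00000060543.1), with 156543 or 1.49%. The transcript at rank 13, ENSBTAT00000044397.3 with 855 nt, matched no mitochondrial protein-coding gene by length.

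Some members share sequence with each other. In the annotation ATP6 overlaps ATP8 and COX3, ND4L overlaps ND4, and ND5 overlaps ND6 on the opposite strand. No use of strand in the counting is stated, so reads from ND6 and from the ND5 transcript that overlaps it cannot be told apart. Nuclear copies of mitochondrial sequence may also share reads with the members, so all values carry that uncertainty.

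The 10 transcripts took a small part of 5 oocyte libraries and a large part of 1 oocyte and all 6 cumulus libraries. Their summed share of the estimated counts was 0.627%, 2.43% and 1.23% in the oocyte L replicates 1 to 3, and 28.3%, 1.81% and 0.654% in the oocyte M/G replicates 1 to 3. In cumulus cells it was 14.7%, 9.82% and 54.3% in the L replicates and 17.2%, 19.5% and 8.09% in the M/G replicates. Oocyte M/G replicate 1 stood 11.6-fold above the next highest oocyte and 22.9-fold above the median of the other 5. Cumulus L replicate 3 stood 2.79-fold above the next highest cumulus library and 3.70-fold above the median of the other 5. The mean was 5.83% ± 11.01 in oocytes and 20.6% ± 17.1 in cumulus cells (SD, n = 6 each), so with these 2 libraries the spread within a cell type was about as large as the difference between them. The cumulus values include L replicate 3, which chose the members. Without oocyte M/G replicate 1 and cumulus L replicate 3 the means were 1.35% ± 0.77 and 13.8% ± 4.81 (SD, n = 5 each). The other 5 oocytes, at 0.627% to 2.43%, lay below all cumulus libraries.

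**Figure D1:**
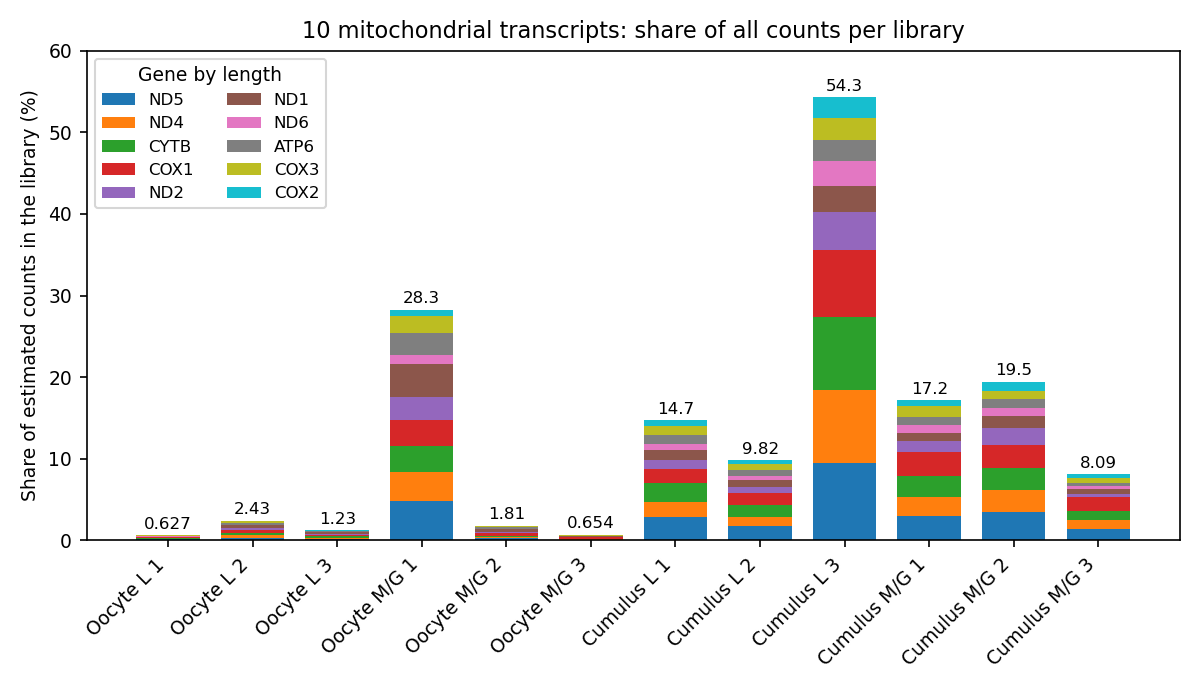
Stacked bars give the share of estimated counts (%) that each of the 10 transcripts took in each of the 12 libraries, with the sum printed above each bar. Oocyte M/G replicate 1 (28.3%) and cumulus L replicate 3 (54.3%) stand above the other libraries of their cell type.

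All 13 mitochondrial transcripts together took 0.689% to 31.8% of the counts in oocytes and 8.82% to 57.9% in cumulus cells. The 10 members thus held most of the mitochondrial counts in every library. On the TPM scale, which divides by effective length, the picture depended on ATP8. The members summed to 1.12%, 3.84% and 2.11% of TPM in the oocyte L replicates, 17.97%, 2.98% and 1.14% in the oocyte M/G replicates, 13.99%, 12.98% and 31.8% in the cumulus L replicates, and 14.6%, 15.2% and 9.92% in the cumulus M/G replicates.

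ATP8 (ENSBTAT00000060553.1, 201 nt) alone held 2.15% to 47.8% of TPM in oocytes and 15.1% to 38.9% in cumulus cells, although it held no more than 1.56% of the counts in any library. Its effective length was given as 17.0 nt in all 12 tables, far below its length. With ATP8 taken out of the total, the members made up 34.4% of TPM in oocyte M/G replicate 1 and 52.0% in cumulus L replicate 3. The TPM of every other transcript in a library is scaled down by what ATP8 takes. Member levels are therefore set against each other as shares of counts, or as TPM ratios within a library.

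ND5 held 0.107%, 0.346% and 0.214% of the counts in the oocyte L replicates, 4.83%, 0.234% and 0.0944% in the oocyte M/G replicates, 2.88%, 1.71% and 9.54% in the cumulus L replicates, and 3.03%, 3.52% and 1.41% in the cumulus M/G replicates. COX1, the catalytic subunit of cytochrome c oxidase, held 0.125%, 0.352% and 0.234% in the oocyte L replicates, 3.15%, 0.306% and 0.132% in the oocyte M/G replicates, 1.73%, 1.46% and 8.24% in the cumulus L replicates, and 2.88%, 2.81% and 1.62% in the cumulus M/G replicates. For both genes the same pair of libraries stood highest in its cell type, and the other 5 oocytes lay below every cumulus library. Without oocyte M/G replicate 1 and cumulus L replicate 3, all 10 members were lower in every oocyte than in every cumulus library by share of counts, as were 2185 of all 27481 transcripts (7.95%), and oocyte M/G replicate 1 overlapped the cumulus libraries or exceeded them for all 10.

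CYTB held 0.0595%, 0.246% and 0.156% in the oocyte L replicates, 3.14%, 0.149% and 0.0653% in the oocyte M/G replicates, 2.35%, 1.42% and 8.87% in the cumulus L replicates, and 2.60%, 2.68% and 1.19% in the cumulus M/G replicates. ND1 held 0.0770%, 0.345% and 0.165%, then 3.96%, 0.302% and 0.0919% in the oocyte groups, and 1.27%, 0.887% and 3.17%, then 1.09%, 1.45% and 0.577% in the cumulus groups, again with L first. ND1 was thus higher in oocyte M/G replicate 1 than in any cumulus library, cumulus L replicate 3 included, whereas CYTB was far lower there than in cumulus L replicate 3. COX2 spanned 0.0250% to 0.735% in oocytes and 0.424% to 2.50% in cumulus cells, and in all 6 oocytes COX2 or ND6 was the lowest member.

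**Figure D2:**
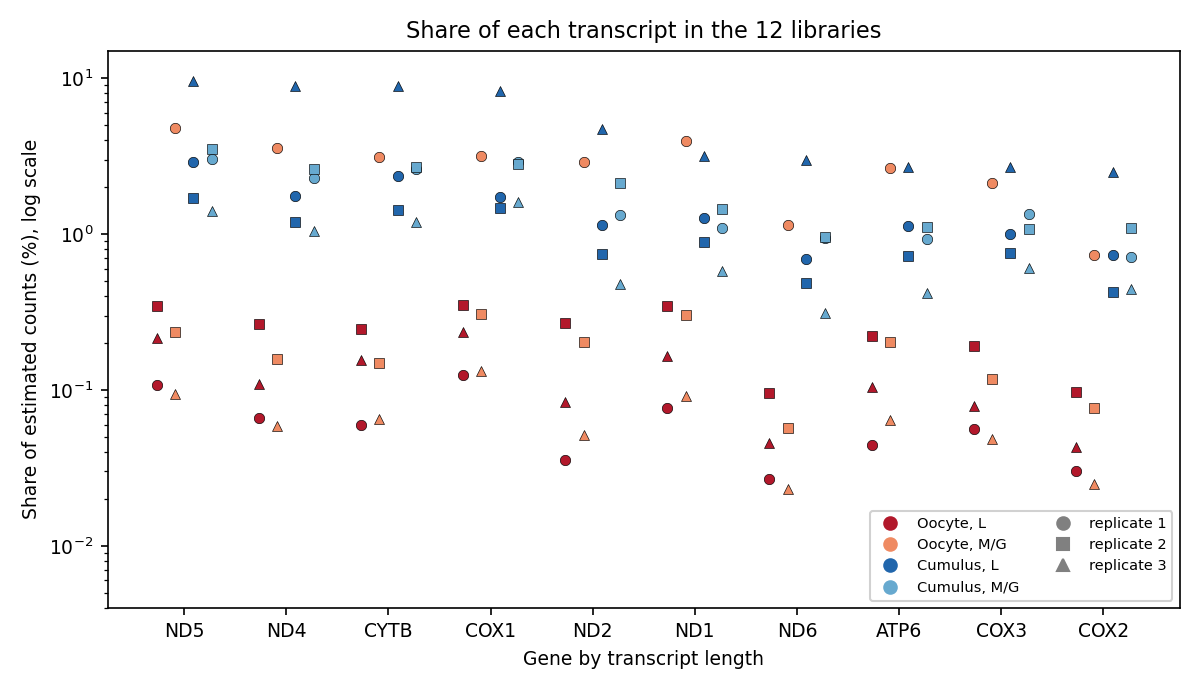
Each point is the share of estimated counts (%, log scale) of 1 transcript in 1 of the 12 libraries, with colour for cell type and group and shape for replicate number. For every member, 5 oocytes lie below all 6 cumulus libraries, while oocyte M/G replicate 1 lies among or above the cumulus libraries. Of all 27481 transcripts, 7.95% also had these 5 oocytes below the 5 cumulus libraries other than L replicate 3, which chose the members.

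By rank, a member was the transcript with the most counts in 9 of the 12 libraries. COX1 was the highest member in 5 oocytes and in cumulus M/G replicate 3, and ND5 in oocyte M/G replicate 1 and the other 5 cumulus libraries. In cumulus cells 6 to 10 members were among the 10 highest transcripts, and the lowest-ranked member was at rank 23 at worst. In oocytes the number among the 10 highest was 0, 6 and 0 in the L replicates and 8, 3 and 0 in the M/G replicates. In oocyte M/G replicate 3, the library with the lowest-ranked member, the members spread from rank 29 to rank 927.

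The factor by which a library stood apart differed between members. In oocyte M/G replicate 1 the count share exceeded the median of the other 5 oocytes 13.5-fold for COX1, 17.1-fold for COX2, 21.0-fold for CYTB and 22.5-fold for ND5, and up to 35.0-fold for ND2 among the members. The 3 mitochondrial genes outside the chosen 10 were higher there as well, by 52.3-fold for ND3, 32.1-fold for ATP8 and 29.7-fold for ND4L. In cumulus L replicate 3 the same measure ran from 2.66-fold for COX3 to 5.04-fold for ND4, and was 1.85-fold for ATP8, 2.997-fold for ND3 and 3.97-fold for ND4L. All 13 genes were thus above the other libraries of the cell type in both, with a different order of the factors. These factors describe libraries that were singled out on the same values, and they carry no test.

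How much of a library its highest transcripts took differed with the members in cumulus cells and in oocyte M/G replicate 1. The 10 highest transcripts of a library, whichever they were, took 2.63% to 2.91% of the counts in 5 oocytes and 29.1% in oocyte M/G replicate 1. In oocyte L replicates 1 and 3 and M/G replicate 3, where no member was among them, removal of the mitochondrial transcripts moved this share from 2.78%, 2.91% and 2.80% to 2.80%, 2.95% and 2.82%. In cumulus cells they took 10.1% to 20.8% in 5 libraries and 54.3% in cumulus L replicate 3. After the 13 mitochondrial transcripts were taken out, the 10 highest of the rest took 8.23% of the remaining counts in cumulus L replicate 3, within the 6.31% to 8.68% of the other cumulus libraries. Oocyte M/G replicate 1 remained the highest oocyte at 5.67%, against 2.38% to 2.95% in the other 5. The counts left for all non-mitochondrial transcripts were 5502900 in oocyte M/G replicate 1, against at least 17486800 in each other oocyte, and 4432870 in cumulus L replicate 3, against at least 5366500 in each other cumulus library. Depth for all other genes was therefore lowest in exactly these libraries of each cell type. Before this removal, oocyte M/G replicate 1 already had the lowest total of the oocytes, 8073221 counts against at least 17970492. It also had the fewest transcripts counted among them, 15604 against 18417 to 21652. Cumulus L replicate 3, at 10522870 counts, lay within the 6397423 to 11879885 of the other cumulus libraries.

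**Figure D3:**
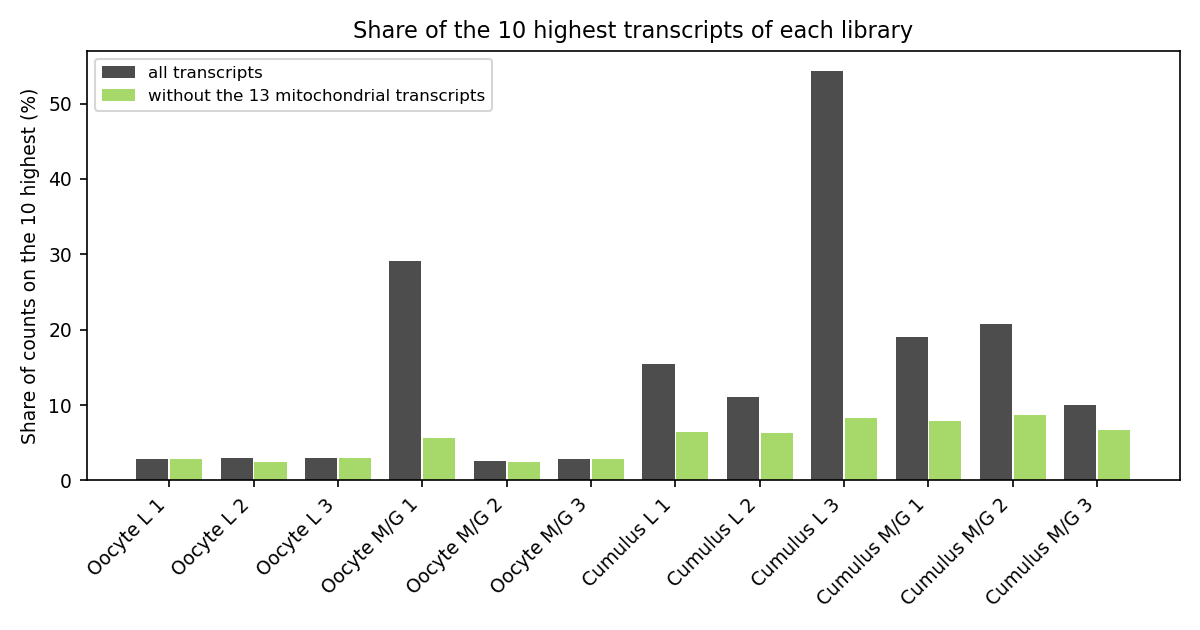
Bars give the percentage of counts that the 10 highest transcripts of each library held, over all transcripts (dark) and after removal of the 13 mitochondrial transcripts (green). Without the mitochondrial transcripts cumulus L replicate 3 (8.23%) lies within the range of the other cumulus libraries, and oocyte M/G replicate 1 (5.67%) still lies above the other oocytes.

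To ask whether the members differed between cell types, 6 oocyte libraries were compared with the 5 cumulus libraries left without cumulus L replicate 3, using edgeR's quasi-likelihood test with Benjamini-Hochberg adjustment over 27481 transcripts. All 10 members were measured in every library and passed the filter on low values. Of all transcripts, 7.39% were called at an adjusted p under 0.05, and 2.24% were called lower in oocytes. None of the 10 members was called, although 7 had an unadjusted p under 0.05, as did 7891 of the 27481 transcripts. Their log2 fold changes, oocyte over cumulus, had a median of -1.92, beside 0.24 over all transcripts tested.

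Among the members the log2 fold change was lowest for COX2, at -2.39 (SE 0.72, adjusted p = 0.0624), followed by CYTB at -2.27 (SE 0.80, adjusted p = 0.0979). It was highest for ND1, at -0.98 (SE 0.75, adjusted p = 0.406), and ATP6, at -1.33 (SE 0.76, adjusted p = 0.262). ND5 and COX1, the members with the most counts, gave -1.98 (SE 0.79, adjusted p = 0.130) and -1.87 (SE 0.65, adjusted p = 0.0955). The 3 remaining mitochondrial genes were not called either, with log2 fold changes of -1.75 for ND4L, -1.60 for ATP8 and -0.94 for ND3.

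A single library decided these calls. Without oocyte M/G replicate 1, all 10 members were called lower in oocytes, with adjusted p-values of 0.000575 to 0.0120 in the same edgeR test, where 3.54% of 27225 transcripts were called lower in oocytes. The log2 fold changes then ran from -4.06 for CYTB to -2.52 for ND1, with a median of -3.56. Leaving out any other library left none of the 10 called. This alternative left out the oocyte library that stood apart on these same members, and so it describes the other 10 libraries. With cumulus L replicate 3 put back beside all 6 oocytes, 6 members were called lower in oocytes, beside 988 of 28107 transcripts (3.52%), but that library chose the members. The test treats the libraries as independent, although some of them are from the same cow.

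**Figure D4:**
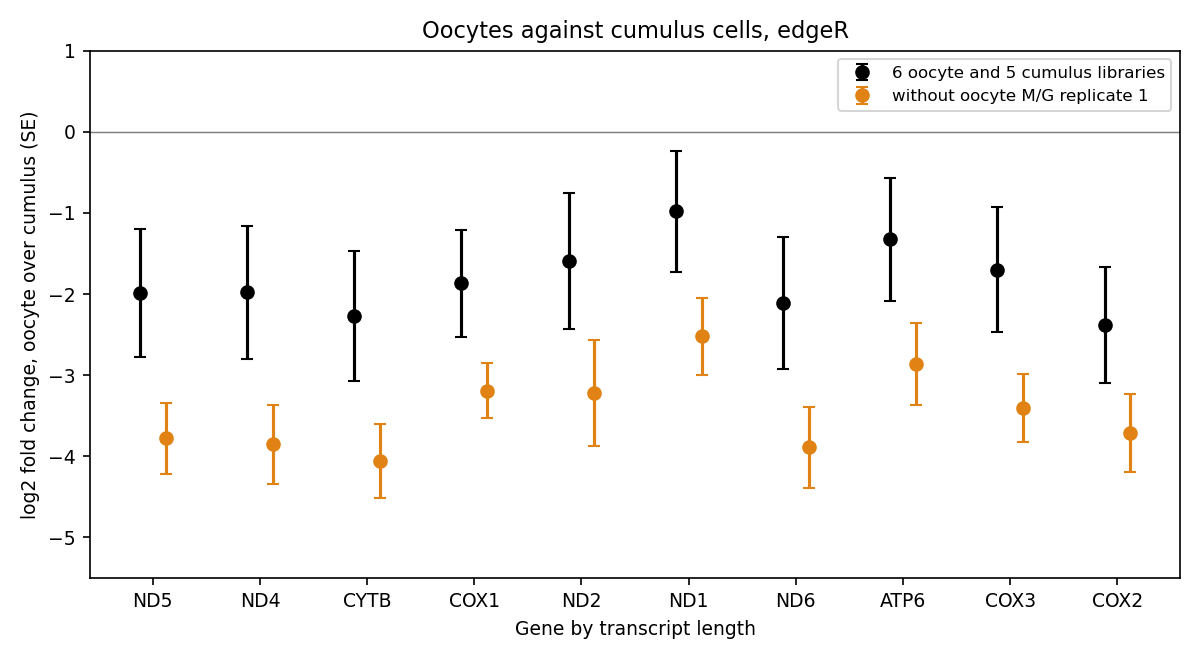
Points are edgeR log2 fold changes of each transcript, oocyte over cumulus, and bars are 1 standard error, for 6 oocyte and 5 cumulus libraries (black) and without oocyte M/G replicate 1 (orange). All values lie below 0 in both settings, from -2.39 to -0.98 with that library and from -4.06 to -2.52 without it.

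Cows that gave both cell types did not share a high or low level. The cow of cumulus L replicate 3 (54.3%) also gave oocyte L replicate 2, where the 10 transcripts took 2.43%. The cow of oocyte M/G replicate 1 (28.3%) also gave cumulus M/G replicate 3, which at 8.09% was the lowest cumulus library. The third such cow gave oocyte M/G replicate 3, at 0.654%, and cumulus M/G replicate 2, at 19.5%. Cumulus cells were thus 22.4-fold and 29.8-fold above the oocyte of the same cow in 2 cases and at 0.286 of it in 1. With 3 cows this is a description only.

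The comparison of L with M/G cows, which the study was designed for, called no member in either cell type. In oocytes, 0 of 23686 transcripts were called by edgeR (0%), with 516 at an unadjusted p under 0.05, and 305 were called by DESeq2. None of the 10 members was called, and none had an unadjusted p under 0.05. Their log2 fold changes, L over M/G, ran from -3.45 for ND4 to -2.61 for COX2 with a median of -3.22, beside 0.11 over all transcripts. ATP6 had the smallest unadjusted p, at -3.31 on the log2 scale (SE 1.45, edgeR adjusted p = 1).

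The size of these values depended on oocyte M/G replicate 1. For each member the other 2 M/G oocytes overlapped the range of the 3 L oocytes, as ND5 at 0.234% and 0.0944% against 0.107% to 0.346% shows. Without that library the members' median was 0.33 and their range -0.07 to 0.57, with none called. Other settings gave smaller unadjusted p-values but no calls. An unadjusted p under 0.05 was found for 10 members without M/G replicate 3, where their median was -3.78 and 909 of 23056 transcripts were under 0.05, for 8 without M/G replicate 2, with 428 of 22895, and for 9 with no filter on low values, with 715 of 28052. DESeq2 gave all 10 members no adjusted p in the oocyte comparison, because its check on single extreme counts set them aside. ND3, ATP8 and ND4L, the remaining mitochondrial genes, gave -3.58, -3.53 and -3.40 with all 6 oocytes, and none was called.

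In cumulus cells, 2 L and 3 M/G libraries were compared, without cumulus L replicate 3. Of 22611 transcripts 0 were called by edgeR (0%), with 368 at an unadjusted p under 0.05, and DESeq2 called 520, none of them a member. The members' log2 fold changes, L over M/G, had a median of -0.41, beside 0.03 over all transcripts. They ran from -0.75 for COX1 (SE 0.33, adjusted p = 1.00 in edgeR) to 0.03 for ATP6 (SE 0.46). ND5 gave -0.35 (SE 0.45). Single libraries moved these values, although leaving out an L replicate here leaves 1 L library, which is then assumed to vary like the M/G libraries. The members' median was -0.84 without L replicate 1, -0.13 without L replicate 2, -0.25 without M/G replicate 1, -0.10 without M/G replicate 2 and -0.75 without M/G replicate 3. Without M/G replicate 3, 5 members had an unadjusted p under 0.05, COX1 among them at -1.01 (SE 0.19), but none was called, the smallest adjusted p of a member in edgeR being 0.208. In that setting 1348 of 21223 transcripts had an unadjusted p under 0.05. With cumulus L replicate 3 included the median turned to 1.41 with a range of 1.11 to 1.67, and again none was called.

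The L effect was not shown to differ between cell types. In the interaction contrast, the L effect in oocytes minus that in cumulus cells, edgeR called 0 of 27481 transcripts (0%), with 1020 at an unadjusted p under 0.05, and DESeq2 called 767. The members' values ran from -3.35 for ATP6, whose unadjusted p of 0.0484 was the smallest, to -1.89 for COX1, all with an adjusted p of 1. Without oocyte M/G replicate 1 their median was 0.64.

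The ratios of the members to each other do not depend on how much of a library they take. For each library the TPM of each member was divided by the geometric mean TPM of the 10, which compares levels per effective length, and the log2 of this ratio was compared between 6 oocyte and 5 cumulus libraries in a two-sided exact permutation test. The permutation treats the libraries as independent, although some of them are from the same cow, and it takes no account of L or M/G. With 10 such ratios tested, of which the differences sum to 0 by construction, p-values are given unadjusted, and 0.00216 is the smallest the design allows. ND1 and ATP6 made up more of the set in oocytes, and ND6, CYTB, COX2 and ND4 made up more of it in cumulus cells. With ND5 as the denominator in place of the geometric mean, ND1, ATP6, ND6 and CYTB kept an exact permutation p under 0.05, and COX2 (exact permutation p = 0.253) and ND4 (exact permutation p = 0.353) did not.

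The log2 ratio of ND1 was 0.48, 0.65 and 0.65 in the oocyte L replicates and 0.68, 0.94 and 0.69 in the oocyte M/G replicates. It was -0.08 and -0.03 in the cumulus L replicates 1 and 2 and -0.47, -0.26 and -0.29 in the cumulus M/G replicates. The groups did not overlap, and the difference of 0.91 had an exact permutation p of 0.00216. Oocyte M/G replicate 1 was at 0.68, in the middle of the other oocytes, and cumulus L replicate 3, outside the test, was at -0.57, below all other cumulus libraries.

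For ND6, the light-strand gene, the log2 ratio was 0.16, 0.00 and -0.01 in the oocyte L replicates, 0.10, -0.27 and -0.11 in the oocyte M/G replicates, 0.38 and 0.45 in the cumulus L replicates 1 and 2, and 0.59, 0.37 and 0.18 in the cumulus M/G replicates. For CYTB it was -0.20, -0.15 and 0.25 in the oocyte L replicates, 0.03, -0.39 and -0.12 in the oocyte M/G replicates, 0.43 and 0.30 in the cumulus L replicates 1 and 2, and 0.42, 0.26 and 0.38 in the cumulus M/G replicates. Neither gene overlapped between cell types, by a narrow margin in both. The differences, oocyte minus cumulus, were -0.41 for ND6 (exact permutation p = 0.00216) and -0.45 for CYTB (exact permutation p = 0.00433).

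ATP6 was at 0.71 ± 0.22 in oocytes and 0.21 ± 0.24 in cumulus cells (SD, n = 6 and 5, exact permutation p = 0.00866). COX2 was at -0.58 ± 0.30 and -0.14 ± 0.22 (exact permutation p = 0.0152), and ND4 at -0.44 ± 0.20 and -0.15 ± 0.09 (exact permutation p = 0.0216), with overlap between the cell types in all 3 of these genes. The differences of ND5 at -0.17, COX1 at 0.18, ND2 at 0.10 and COX3 at 0.08 did not pass, with exact permutation p-values of 0.104 to 0.623. Within complex I, ND1 was relatively higher in oocytes, ND6 and ND4 were relatively higher in cumulus cells, and ND2 and ND5 did not pass.

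**Figure D5:**
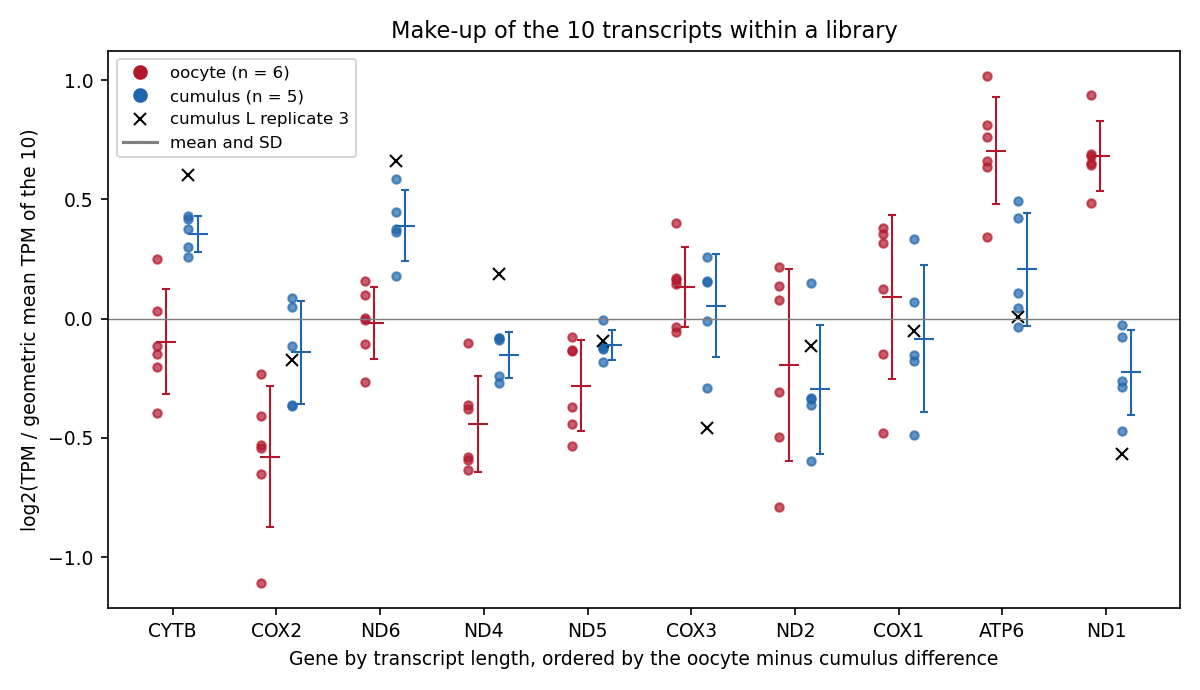
Points are the log2 ratio of each transcript's TPM to the geometric mean TPM of the 10 in each oocyte (red, n = 6) and cumulus (blue, n = 5) library, with mean and SD, and crosses mark cumulus L replicate 3. ND1 lies highest in oocytes relative to cumulus cells and CYTB lowest, and neither overlaps between the cell types.

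By level per effective length, ATP6 and ND1 led in oocytes, with mean log2 ratios of 0.71 and 0.68 that differ by less than their SD, and COX2 was last at -0.58, below ND4 at -0.44 by less than the SD. In cumulus cells ND6 and CYTB led at 0.39 and 0.36, followed by ATP6 at 0.21, and ND1 at -0.23 and ND2 at -0.30 were last. ND6 and CYTB differed by less than the SD of either, as did ND1 and ND2, whereas CYTB lay above ATP6 by more than its own SD and less than that of ATP6. The TPM of ND1 was 1.32 to 2.51 times that of CYTB in the 6 oocytes and 0.444 to 0.797 times in the 6 cumulus libraries. That of ATP6 was 1.49 to 3.65 times that of COX2 in oocytes and 0.920 to 1.72 times in cumulus cells.

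By median correlation, libraries of a cell type resembled each other in this make-up more than libraries of different cell types did. Across the 10 members, Pearson's r between 2 oocyte libraries had a median of 0.719 (0.374 to 0.927, 15 pairs), between 2 cumulus libraries 0.493 (0.114 to 0.862, 15 pairs), and between an oocyte and a cumulus library 0.0557 (-0.452 to 0.636, 36 pairs). The oocyte and cumulus libraries of the same cow gave -0.320, -0.314 and -0.255. Pairs with cumulus L replicate 3, which chose the members, are among these. Its r was -0.452 to -0.0885 with the oocytes and 0.443 to 0.832 with the other cumulus libraries. All these values are across genes that share reads and precursors, and they are a description. Oocyte M/G replicate 1, with a summed share like that of cumulus cells, lay with the other oocytes in ND1 and ATP6, and had the lowest COX1 and COX2 ratios of the oocytes, at -0.48 and -1.11. Its ND4 ratio of -0.10 lay above those of the other 5 oocytes, -0.63 to -0.36, and within the range of the 5 tested cumulus libraries, -0.27 to -0.08. Its TPM ratio of CYTB to COX1, 1.43, also lay within the cumulus range of 1.03 to 1.89 and above the 0.681 to 0.9997 of the other oocytes. Its make-up correlated at 0.374 to 0.866 with the other oocytes and at -0.314 to 0.585 with the cumulus libraries.

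Effective lengths were not made alike in the tables of the 2 cell types. In all 6 oocyte tables the effective length was the length minus 199 nt for 97.9% of transcripts and never above the length. In the cumulus tables this held for 24.1% to 46.6% of transcripts, and 2.04% to 19.1% had an effective length above their length. For the members the effective length in a cumulus table was 78.0% to 106% of that in the oocyte tables. The make-up was therefore also computed from counts, where length cancels in each comparison between libraries. The same 6 members then had an exact permutation p under 0.05, and ND6, at a difference of -0.33 (exact permutation p = 0.0108), overlapped between cell types. The parts of kit and cell type in these ratios cannot be told apart.

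Among 3583 other transcripts above the filter in every library, those most like the summed level of the 10 over the 12 libraries were the 3 remaining mitochondrial genes. Pearson's r of log2(TPM + 1) was 0.992 for ND4L, 0.975 for ATP8 and 0.941 for ND3, beside a median of -0.663 over all transcripts compared. Next were ENSBTAT00000023407.3 (1207 nt) at 0.936 and ENSBTAT00000044397.3 (855 nt) at 0.894, neither with a mitochondrial length. Within the 6 oocytes r was 0.988 for ND4L, 0.995 for ATP8, 0.982 for ND3, 0.988 for ENSBTAT00000023407.3 and 0.811 for ENSBTAT00000044397.3. Within the 6 cumulus libraries it was 0.974, 0.725, 0.728, 0.03 and -0.38 in the same order. The points share library totals, the scaling of each library's TPM by ATP8 and the gap between cell types, so these correlations are a description with no test. By share of counts, ENSBTAT00000044397.3 lay at 0.000443% to 0.118% in oocytes and 0.789% to 2.55% in cumulus cells, with cumulus L replicate 3 at 1.24%.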

How the data were processed

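RNA sequencing tables of 12 libraries were used, 6 of single oocytes and 6 of cumulus cells. Per the labels and the study's methods, the authors trimmed the reads and quantified them with kallisto 0.44.0 against the Ensembl bovine cDNA set, and removed libraries with few exonic reads. The authors deposited 1 table per library with estimated counts per transcript, which are not normalized, and TPM values, which Kallisto scaled by effective length and library total. The length column was used to identify transcripts.

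Members and gene lists were chosen with earlier results of these data known. The rule for named genes takes all 10 members, ranks 11 to 13 of the choosing library, the 13 mitochondrial genes by length, and the 5 most alike transcripts among those above FPKM 1 in all libraries. A tolerance of 3 nt set 2 genes beside 1 transcript, so equal length was required.

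Estimated counts were rounded and tested with edgeR 4.0.16 (TMM, glmQLFTest, R 4.3.3) on transcripts above FPKM 1 in at least 1 library, with Benjamini-Hochberg adjustment over all of them at 0.05. Standard errors were derived from the fold change and the F statistic. The FPKM was computed from counts and effective length. Alternatives were DESeq2 1.42.0, other scalings, no filter, a replicate block, and leaving out libraries. Make-up ratios were tested with an exact permutation test written in Python 3.11.15 with numpy 2.4.6, over all 462 assignments of libraries, with no adjustment over the 10 members. The edgeR procedure was also run on simulated counts as a check of the code, which says nothing on its calls in these libraries. P-values measure the spread between libraries, which are from different cows within a cell type. Depth was 6397423 to 31810285 counts per library.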

Additional observations from a re-analysis of the deposited data

Results flagged for a closer look

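Within each cell type, the gap of the highest or lowest library to its neighbour was set against the whole range, with critical values of 0.625 for the 6 oocytes and 0.71 for the 5 cumulus libraries other than L replicate 3, which was left out because its counts chose the members. Oocyte M/G replicate 1 lay past the critical value for the summed share of 28.3% and for each member, and no make-up ratio lay past it. Chance alone gives about 1 such value in 20. That library was already known to stand apart on these shares, and the shares of 1 library depend on each other, so the values are a description and not a test. Its shares were 4.83% for ND5, 3.59% for ND4, 3.14% for CYTB, 3.15% for COX1, 2.91% for ND2, 3.96% for ND1, 1.15% for ND6, 2.67% for ATP6, 2.13% for COX3 and 0.735% for COX2.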

How the results depend on the processing

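All oocyte against cumulus log2 fold changes of the members stayed below 0 under every alternative run. DESeq2 called 305 transcripts in oocytes, 520 in cumulus cells, 7528 between cell types and 767 in the interaction, where edgeR called 0, 0, 2030 and 0. It gave no adjusted p to 10 members in oocytes, and to COX1, ND6 and CYTB between cell types, and called COX2 (adjusted p = 0.0434), so no count of members is given for it there. With no filter 11 transcripts were called in cumulus cells, 1 in the interaction, and 2 members, COX1 and COX2, between cell types, beside 807 of 31554 transcripts called lower in oocytes. With cumulus L replicate 3 included, 6 members were called between cell types, and the L against M/G values in cumulus cells turned to 1.44 for ND5 and 1.31 for COX1. ATP6 there turned from 0.03 to -0.0033 with DESeq2 and with its size factors. The mean summed share of the oocyte L group was 2.36% of TPM against 1.43% of counts. The causes of these changes were not tested.

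Leaving out 1 library at a time gave 0 to 10 members and 310 to 3229 transcripts called between cell types, 0 to 1 transcripts in cumulus cells, 0 to 7 in the interaction, and 5 to 7 make-up ratios with an exact permutation p under 0.05. The 10 members were called without oocyte M/G replicate 1, and the lowest count of transcripts was that without cumulus L replicate 1. The L against M/G values ranged from -3.85 to 0.49 for ND5 and -3.24 to 0.22 for COX2 in oocytes, and from -0.84 to 0.00469 for ND5 and -0.40 to 0.36 for ATP6 in cumulus cells. The COX3 make-up difference ranged from -0.00896 to 0.13.

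Titles of both groups carry replicate numbers 1 to 3, but libraries that share a number are not from 1 cow, and within a cell type their departures from the mean of the group correlated at -0.245 to 0.137 in oocytes and -0.328 to -0.0147 in cumulus cells, so the numbers do not pair them. With the replicate block, 1034 transcripts and 0 members were called between cell types, ATP6 in cumulus cells turned to -0.35, and the members' median in oocytes was -0.75, with 0 members called in any comparison. Counts of the members were high in every library, and the main tests rest on 2 or 3 libraries per group and cell type. How counting error compares with the spread between libraries was not tested.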
